A study of Danio rerio with 12 samples.

Results

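Integrin subunits and laminin chains were examined in whole zebrafish larvae that lack a functional elmo1 gene. The members are the Ensembl gene IDs whose symbol names an integrin alpha or beta subunit or a laminin alpha, beta or gamma chain. They needed at least 10 counts in 6 or more of the 12 samples. The rule left out by name itgav, which encodes the alpha v subunit, and genes named itgb1bp, so alpha v was not examined. Of 32520 IDs in the series, 48 matched by symbol and 43 passed the count minimum. These comprised 30 integrin subunits (19 alpha and 11 beta), 12 laminin chains (5 alpha, 5 beta and 2 gamma) and itgb3bp, which matched by its symbol only, encodes no receptor subunit and was kept apart. Upper-case symbols are names of orthologues, so that several zebrafish IDs can share one. ITGB1 stands for 4 IDs, and ITGB3, ITGA11 and LAMB1 stand for 2 each, which are told apart here by their Ensembl IDs. Reads shared between such copies may have been split among them during counting, so values of single copies are uncertain where this happened. A split can leave fractional counts. The lowest and highest counts were fractional for the ITGB1 copy ENSDARG00000022689 (198.7 and 324.7). They were whole for the LAMB1 copies ENSDARG00000045524 (695 and 915) and ENSDARG00000101209 (687 and 976).

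Integrins are cell surface receptors made of one alpha and one beta subunit, and the pairing decides which matrix protein or counter-receptor is bound. Laminins are cross-shaped trimers of one alpha, one beta and one gamma chain and are the proteins from which basement membranes are assembled under epithelia, around muscle fibres and around blood vessels. Elmo1 acts with Dock proteins to activate Rac, a small GTPase that also works downstream of integrins during cell spreading and migration.

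RNA was sequenced from 6 elmo1-/- and 6 elmo1+/+ samples, each a pool of 30 larvae at 120 hours post fertilization (hpf). The mutant is a single line with a frameshift insertion made with CRISPR/Cas9, its controls are wild type littermates, and both genotypes carry the Tg(fli1:EGFP) transgene, which labels endothelial cells. Genotypes come from the sample titles; a genotype label of the elmo1-/- samples reads hz, which is not explained. Whether the 6 samples of a genotype came from separate clutches is not given, so p-values measure the spread between these pools only.

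Total expected counts ranged between 20784515 and 21251208 in elmo1-/- samples and between 20876799 and 21808513 in elmo1+/+ samples. The 20 most abundant genes took 17.03% to 19.07% of them in elmo1-/- and 17.7% to 18.2% in elmo1+/+ samples. The transcript of elmo1 itself (ENSDARG00000098753) was still present, with 107.6 ± 7.86 CPM (counts per 1e+06 counts of a TMM-scaled library) in elmo1-/- larvae, against 129.0 ± 8.18 CPM in elmo1+/+ larvae (SD, n = 6 each; log2 fold change -0.26, adjusted p = 0.137 in edgeR's quasi-likelihood test). Its genotypes did not overlap, with 119.7 CPM in the highest elmo1-/- sample and 121.7 CPM in the lowest elmo1+/+ sample. Markers of muscle, epidermis and neural tissue, the tissues in which many integrins and laminins are found, were abundant in every sample. Of them, 0 of 5, 0 of 6 and 0 of 6 genes passed the test, with median log2 fold changes of 0.088, -0.058 and 0.0046. Of all genes tested 0.234% passed, so that 0 in lists this short says little. All 5 muscle markers lay above 0. Of the epidermis markers 5 lay below 0 and 1 above, and of the neural markers 3 lay on each side. Sample 5 of the elmo1-/- group stood apart for the members. Without it the log2 fold change moved down for 32 of the 42 subunits and chains and up for 10, by -0.24 to 0.14. The sample was singled out for its high values in these members, so that most moves down follow from this choice. It lay above the mean of the other mutant samples for 23 of 30 integrin subunits and 9 of 12 laminin chains, against 49.4% of all genes. Values without it are given below for several members.

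The comparison of elmo1-/- with elmo1+/+ larvae asks whether the loss of elmo1 alters the transcripts of these receptors and matrix proteins. With edgeR's quasi-likelihood test and Benjamini-Hochberg adjustment over all 21830 genes tested, 0 of 30 integrin subunits and 0 of 12 laminin chains passed an adjusted p of 0.05. Among all genes tested 51 passed (0.234%). At an unadjusted p under 0.05 the integrins included 2 higher (itga2.3 and itgb2) and 1 lower (itgae.1) in elmo1-/-, and the laminins included 0, where the background was 6.16% of all genes, 3.06% higher and 3.1% lower. DESeq2 gave the same counts for both families, where its background was 5.5% of all genes, 2.73% higher and 2.77% lower. The lowest adjusted p of a member was 0.382 in edgeR and 0.122 in DESeq2, both for itga2.3. In 0 of 42 genes did the CPM values of the genotypes lie fully apart, against 0.513% of all genes. In whole larvae fewer cells of a type and less RNA per cell cannot be told apart.

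Fold changes of the families lay slightly below 0. Of 30 integrin subunits 20 had a log2 fold change below 0, and of 12 laminin chains 10 did, against 48.3% of all genes. The median log2 fold change (elmo1-/- over elmo1+/+) was -0.057 for integrins and -0.059 for laminins, beside 0.0043 for all genes, whose quartiles were -0.070 and 0.072. Between samples of a genotype, the family median of log2 CPM had a pooled SD of 0.082 for integrins and 0.089 for laminins. The family medians were not tested. With 1 sample left out, the medians ranged between -0.107 and -0.017 for integrins and between -0.082 and -0.035 for laminins. The value of -0.107 was reached without elmo1-/- sample 5 and that of -0.017 without elmo1+/+ sample 1. The 95% intervals of all 12 laminin chains and of 22 integrin subunits stayed within 0.5 log2 units on either side of 0.

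**Figure D1:**
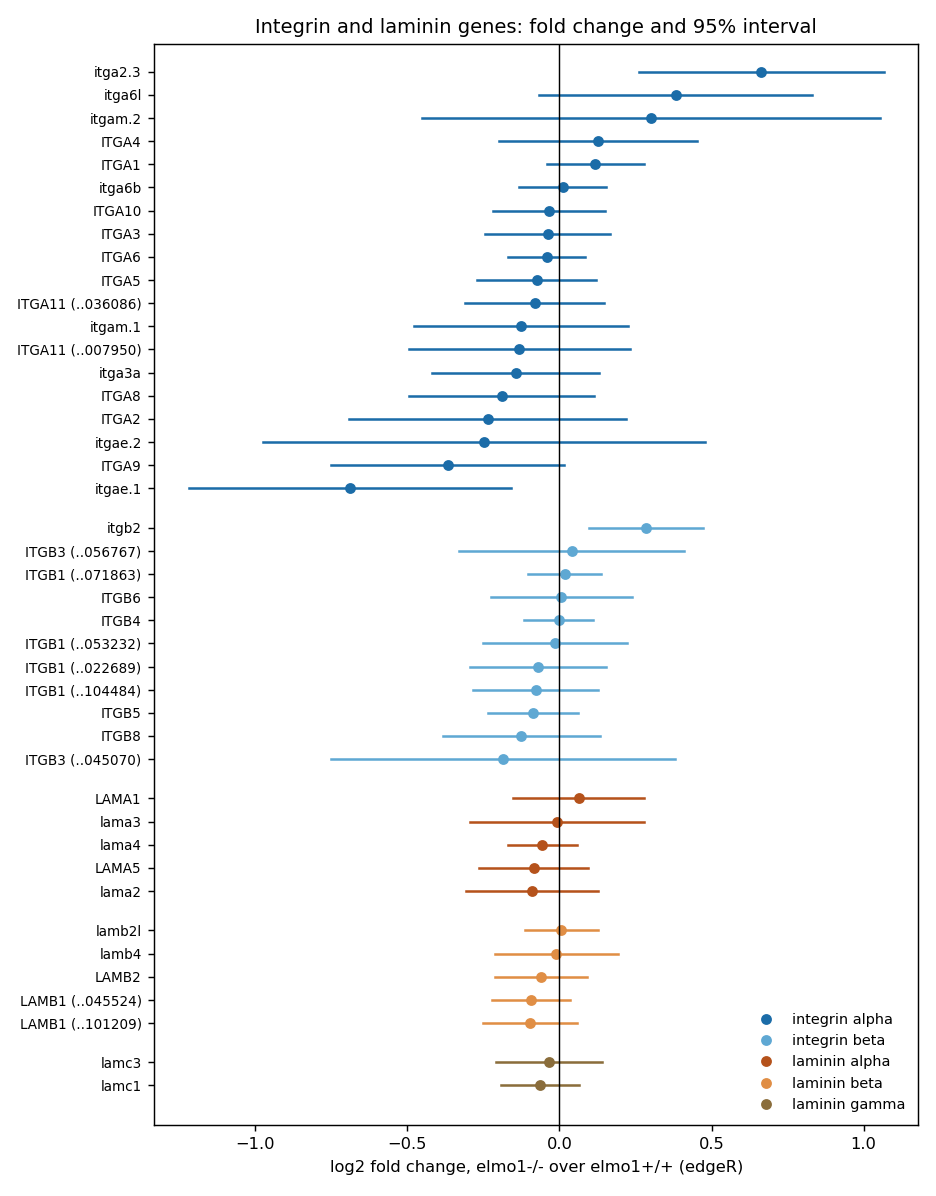
Log2 fold change of elmo1-/- over elmo1+/+ larvae for each of 30 integrin subunit and 12 laminin chain genes (points) with 95% intervals from edgeR (lines), sorted within each class. Laminin points lie between -0.10 and 0.06, while integrin points spread between -0.69 (itgae.1) and 0.66 (itga2.3).

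The alpha subunits that bind laminins comprised ITGA3, itga3a, ITGA6, itga6b and itga6l. In mammals, alpha 3 and alpha 6 receptors attach epithelial cells to the basement membrane. Among the 19 alpha subunits examined, which exclude alpha v, the gene itga6b was the most abundant. It had 12.7 ± 1.31 TPM (transcripts per 1e+06, a level corrected for length) in elmo1-/- and 13.2 ± 1.23 TPM in elmo1+/+ larvae (SD, n = 6 each). Its range did not overlap that of the next gene, ITGA1. Of the TPM summed over these 19 subunits itga6b took 27.2% in elmo1-/- and 28.0% in elmo1+/+ larvae. Its CPM values were 30.0, 31.8 and 34.4 (lowest, median and highest) in elmo1-/- and 26.0, 32.9 and 33.9 in elmo1+/+ samples. The log2 fold change was 0.01 (SE 0.067, 95% interval -0.13 to 0.15), and with library size only or with TPM its sign turned to negative.

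The largest difference in this group was that of itga6l. Its lowest, median and highest CPM values were 2.34, 4.99 and 5.88 in elmo1-/- samples, against 2.53, 3.38 and 4.77 in elmo1+/+ samples. The genotypes overlapped, and elmo1-/- sample 5 was the lowest of all 12. The log2 fold change of 0.38 (SE 0.21, adjusted p = 0.890 in edgeR) was 0.52 without that sample. On the length-corrected scale the difference was smaller, at 1.62 ± 0.577 TPM in elmo1-/- and 1.49 ± 0.715 TPM in elmo1+/+ larvae (SD, n = 6 each). The length assigned to this gene varied by 26.1% between samples (coefficient of variation), whereas the median over the 42 members was 0.403%. For itga3a the values were 3.91, 4.91 and 5.64 CPM in elmo1-/- and 4.44, 5.05 and 7.01 CPM in elmo1+/+ samples, with a log2 fold change of -0.14 (SE 0.13). ITGA3 and ITGA6 differed by -0.04 each, and by -0.14 and -0.04 without elmo1-/- sample 5.

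The alpha subunits that bind collagen in mammals comprised ITGA1, ITGA2, itga2.3, ITGA10 and both ITGA11 copies. The gene itga2.3, one of several zebrafish relatives of the alpha 2 subunit, had the highest log2 fold change and the lowest p among the members. Its lowest, median and highest values were 3.52, 4.11 and 6.11 CPM in elmo1-/- samples, against 1.79, 2.75 and 3.89 CPM in elmo1+/+ samples. All 6 elmo1-/- samples lay above the elmo1+/+ median and 3 of them above the highest elmo1+/+ sample, so that the genotypes overlapped in part. The log2 fold change was 0.66 (SE 0.189, 95% interval 0.26 to 1.07) and the adjusted p was 0.382 in edgeR, with adjusted p values between 0.122 and 0.641 over all alternatives tried. In TPM it reached 5.34 ± 1.26 in elmo1-/- and 3.44 ± 0.803 in elmo1+/+ larvae (SD, n = 6 each). This is 11.4% and 7.32% of the TPM summed over the 19 alpha subunits examined.

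ITGA2, another gene named for alpha 2 among those past the count minimum, had values on the other side of 0. It showed 1.25, 1.92 and 3.71 CPM in elmo1-/- samples, against 2.04, 2.55 and 2.98 CPM in elmo1+/+ samples. Of the elmo1-/- samples 4 lay below the lowest elmo1+/+ sample, while sample 5 lay above all 11 others. This gave a log2 fold change of -0.24 (SE 0.213, adjusted p = 0.959 in edgeR), or -0.48 without elmo1-/- sample 5 (unadjusted p = 0.0103, adjusted p = 0.374). The difference between ITGA2 and itga2.3 was not tested. Reads shared between genes can leave fractional counts. The lowest and highest counts were whole for both, at 25 and 81 for ITGA2 and 39 and 130 for itga2.3. How reads were divided between these related genes was not examined further. ITGA1, a receptor for collagen IV in mammals, had 12.6, 15.1 and 17.2 CPM in elmo1-/- and 12.3, 13.9 and 14.9 CPM in elmo1+/+ samples (log2 fold change 0.12, SE 0.075; 0.07 without elmo1-/- sample 5). ITGA10 and the ITGA11 copies had log2 fold changes between -0.13 and -0.03.

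The alpha subunits for fibronectin and other matrix ligands comprised ITGA5, ITGA8, ITGA4 and ITGA9. Alpha 5 is the main fibronectin receptor subunit, alpha 8 binds nephronectin during kidney development in mice, and alpha 4 and alpha 9 bind VCAM1 and tenascin C among others. ITGA9 had 1.66, 2.17 and 3.01 CPM in elmo1-/- samples, against 2.19, 3.04 and 3.82 CPM in elmo1+/+ samples. Of the elmo1-/- samples 3 lay below the lowest elmo1+/+ sample and 0 above the highest. Its fold change was -0.37 on the log2 scale (SE 0.18, 95% interval -0.75 to 0.02, adjusted p = 0.836 in edgeR).

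ITGA8 had 4.49, 5.57 and 8.38 CPM in elmo1-/- samples, against 5.59, 6.88 and 8.12 CPM in elmo1+/+ samples, and the highest of all 12 values was again that of elmo1-/- sample 5. On the log2 scale it differed by -0.19 (SE 0.143), and -0.31 without that sample. ITGA4 had 1.69, 2.27 and 3.16 CPM in elmo1-/- and 1.79, 2.18 and 2.52 CPM in elmo1+/+ samples, with a log2 fold change of 0.13 (SE 0.152). It was 0.028 without elmo1-/- sample 5. ITGA5, with 9.22 ± 1.36 CPM in elmo1-/- larvae, against 9.72 ± 0.595 CPM in elmo1+/+ larvae (SD, n = 6 each), had a log2 fold change of -0.07. With 1 sample of either genotype left out, it ranged between -0.16 and -0.04.

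**Figure D2:**
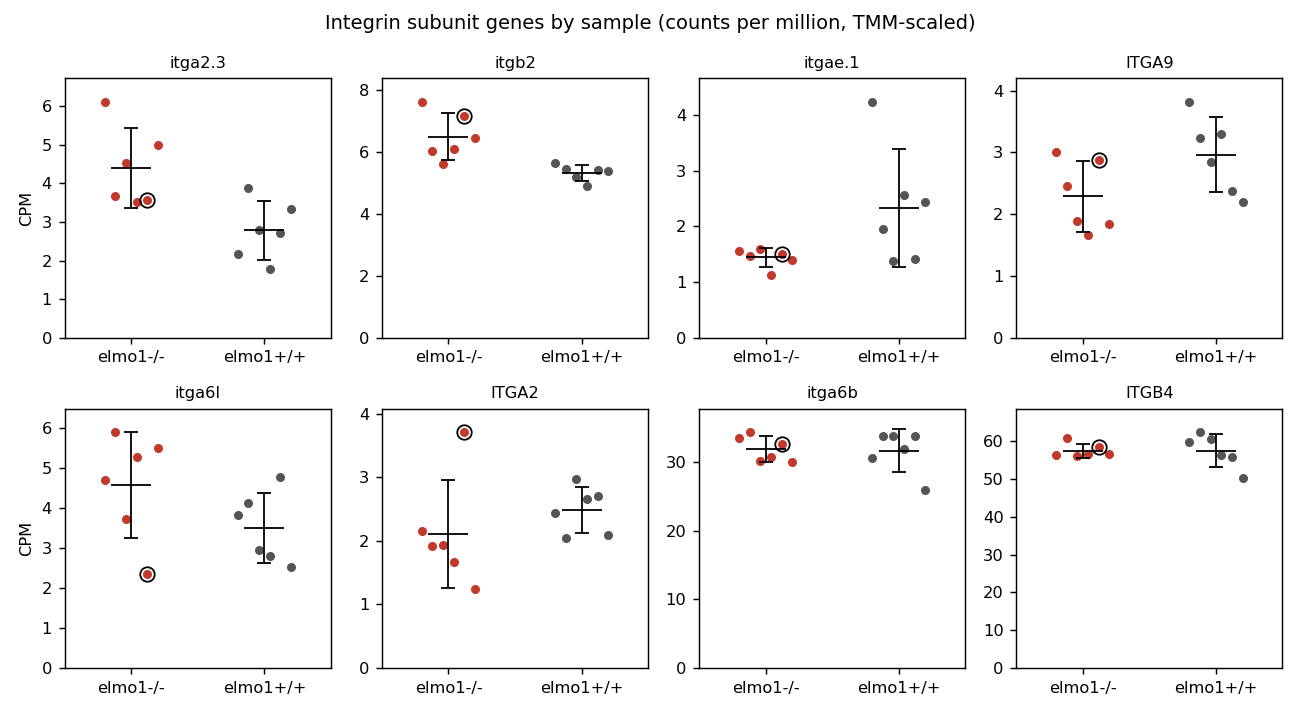
CPM of 8 integrin subunit genes in each sample, elmo1-/- in red and elmo1+/+ in grey, with the mean (long line) and SD (whiskers, n = 6 each); the ring marks elmo1-/- sample 5 and axes start at 0. For itga2.3 3 elmo1-/- samples and for itgb2 5 lie above every elmo1+/+ sample, for itgae.1 one elmo1+/+ sample at 4.23 CPM lies far above the rest, and itga6b and ITGB4 are level between genotypes.

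Integrins of leukocytes were low in whole larvae. itgb2 encodes the beta subunit shared by the leukocyte integrins, which in mammals carry neutrophils, macrophages and T cells through vessel walls. It had 5.60, 6.27 and 7.61 CPM in elmo1-/- samples, against 4.91, 5.40 and 5.66 CPM in elmo1+/+ samples. Of the elmo1-/- samples 5 lay above the highest elmo1+/+ sample. This was a log2 fold change of 0.28 (SE 0.088, 95% interval 0.10 to 0.47), with an unadjusted p of 0.0056 and an adjusted p of 0.472 in edgeR. Its alpha M partners were low, and itgam.2 lay near the count minimum. itgam.1 had 1.35 ± 0.203 CPM in elmo1-/- larvae, against 1.47 ± 0.297 CPM in elmo1+/+ larvae (SD, n = 6 each). For itgam.2 the values were 0.534 ± 0.203 and 0.435 ± 0.210 CPM. The log2 fold change of itgam.2 was 0.30 (SE 0.353), and 0.16 without elmo1-/- sample 5.

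itgae.1, related to the alpha E subunit that in mammals holds T cells in epithelia, had the lowest log2 fold change of all members and was singled out after its values were seen. It had 1.12, 1.49 and 1.59 CPM in elmo1-/- samples, against 1.38, 2.19 and 4.23 CPM in elmo1+/+ samples. The mutant values lay close together, while elmo1+/+ sample 1 was the highest of all 12. It differed by -0.69 on the log2 scale (SE 0.248, adjusted p = 0.642 in edgeR), and it was -0.43 at the nearest to 0 when single samples were left out. The second copy, itgae.2, differed by -0.25 (SE 0.341), and by 0.079 without elmo1+/+ sample 1.

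Leukocyte markers were read beside these genes. Of 10 tested, 0 passed the threshold, against 0.234% of all genes, 6 had a log2 fold change above 0 and the median was 0.047. At an unadjusted p under 0.05 in edgeR the markers included 1 higher (lyz) and 2 lower (RAG1 and lck). The background was 3.06% and 3.1% of all genes. Log2 fold changes of these markers were 0.34 for lyz, -0.75 for RAG1 and -0.97 for lck. Their summed level was 66.8 to 86.0 CPM in elmo1-/- and 64.1 to 82.6 CPM in elmo1+/+ samples. Single markers pointed both ways. lyz, the lysozyme gene of neutrophils and macrophages, had 19.3 ± 3.81 CPM in elmo1-/- larvae, against 15.3 ± 2.45 CPM in elmo1+/+ larvae (adjusted p = 0.678). RAG1, which cuts antigen receptor genes in developing lymphocytes, had 3.34 ± 0.903 and 5.63 ± 1.45 CPM (adjusted p = 0.256), and lck, a kinase of T cells, had 0.424 ± 0.169 and 0.838 ± 0.308 CPM (adjusted p = 0.510) in elmo1-/- and elmo1+/+ larvae. The part of leukocyte numbers in the values of itgb2 and itgae.1 was not tested.

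The beta 1 subunit pairs with most matrix-binding alpha subunits, and its 4 copies together took 63.3% ± 0.970 of all beta subunit TPM in elmo1-/- and 63.6% ± 1.64 in elmo1+/+ larvae (SD, n = 6 each). Their summed level was 133.9 ± 10.1 CPM in elmo1-/- larvae, against 134.5 ± 9.36 CPM in elmo1+/+ larvae, a sum that does not depend on how reads were split between the copies. The most abundant copy (ENSDARG00000071863) had 84.4, 90.6 and 96.4 CPM in elmo1-/- samples, against 81.5, 91.0 and 97.5 CPM in elmo1+/+ samples. The ranges coincided almost fully, and the log2 fold change was 0.02 (SE 0.056, 95% interval -0.10 to 0.14), negative with library size only and with TPM. For the copy ENSDARG00000104484 the values were 12.8, 13.8 and 18.6 CPM in elmo1-/- and 13.4, 14.8 and 18.0 CPM in elmo1+/+ samples (log2 fold change -0.08, SE 0.097). Without elmo1-/- sample 5, which was the highest of all 12, it was -0.16. The remaining copies differed by -0.07 (ENSDARG00000022689) and -0.02 (ENSDARG00000053232), and by -0.16 and -0.10 without that sample.

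ITGB4, which with alpha 6 anchors basal epidermal cells in hemidesmosomes, was among the most evenly expressed members. Its values were 56.0, 56.6 and 60.8 CPM in elmo1-/- and 50.4, 58.1 and 62.5 CPM in elmo1+/+ samples, and the 95% interval of its log2 fold change ran from -0.12 to 0.11. The partners of the alpha v subunit, ITGB3, ITGB5, ITGB6 and ITGB8, had log2 fold changes between -0.19 and 0.04. The lowest was that of the low ITGB3 copy (ENSDARG00000045070), which was -0.36 without elmo1-/- sample 5 and above 0 in 3 of 23 alternatives, those on TPM or with a length offset. Of these partners ITGB5 was the most abundant, at 6.63 ± 0.947 TPM in elmo1-/- and 7.25 ± 0.177 TPM in elmo1+/+ larvae (SD, n = 6 each). The more abundant ITGB3 copy (ENSDARG00000056767), whose mammalian orthologue serves platelets and endothelium, had 5.88, 6.31 and 12.001 CPM in elmo1-/- samples, against 5.75, 7.06 and 9.17 CPM in elmo1+/+ samples. Only elmo1-/- sample 5 lay outside the elmo1+/+ range, and the log2 fold change of 0.04 became -0.17 without it.

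**Figure D3:**
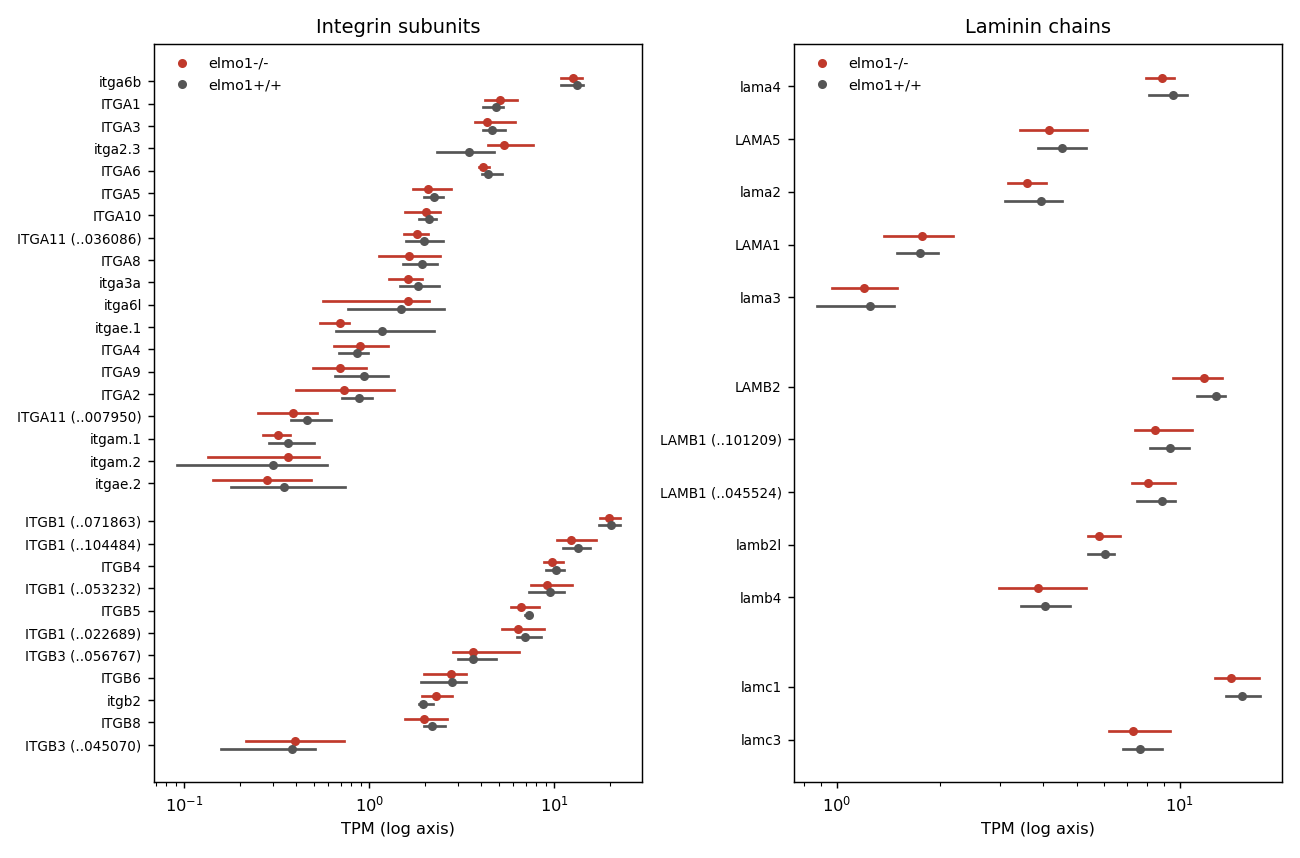
TPM (log axis) of each integrin subunit (left) and laminin chain (right), elmo1-/- in red above elmo1+/+ in grey; points are means and lines span the lowest to the highest of 6 samples. Within each class the genes are ordered by their mean over all 12 samples, from itga6b at 12.95 TPM and ITGB1 (ENSDARG00000071863) at 19.96 TPM down to itgae.2 at 0.313 TPM and the ITGB3 copy ENSDARG00000045070 at 0.388 TPM.

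In the order of alpha subunit levels, ITGA1 (4.96 TPM over 12 samples), ITGA3 (4.46), itga2.3 (4.39) and ITGA6 (4.23) overlapped as neighbours, and ITGA6 lay above ITGA5 (2.16) in all 12 samples. Among beta subunits the most abundant ITGB1 copy did not overlap with the next one, whereas the neighbours further down overlapped in range until the step between ITGB8 (2.08 TPM) and the low ITGB3 copy. In all, 5 genes matched by symbol but missed the count minimum. They included itga2b (the thrombocyte alpha subunit), with at most 15 counts in a sample, and itgb7, with at most 14. Just outside the minimum was itga2b, with 10 counts in 4 of 12 samples, and just inside it was itgam.2, with 10 counts in 7. The 5 genes below the minimum were not tested. All 43 genes inside the minimum also passed the low-count filter of the test.

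Laminin alpha chains decide which receptors a laminin meets. lama4, the alpha chain of vascular and fat basement membranes in mice, was the most abundant, at 8.86 ± 0.565 TPM in elmo1-/- and 9.52 ± 0.901 TPM in elmo1+/+ larvae (SD, n = 6 each), and took 45.4% and 45.3% of all laminin alpha TPM. Its CPM values were 44.0, 45.5 and 47.8 in elmo1-/- samples, against 42.7, 47.7 and 51.7 in elmo1+/+ samples. The mutant range lay inside the wild type range, with a log2 fold change of -0.06 (SE 0.053, 95% interval -0.17 to 0.06). LAMA5, a broad epithelial and endothelial chain needed in zebrafish for fin development, had 35.2, 40.2 and 48.5 CPM in elmo1-/- and 38.0, 42.0 and 48.4 CPM in elmo1+/+ samples. On the log2 scale the fold change was -0.08 (SE 0.084), and -0.15 without elmo1-/- sample 5.

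lama2 is the muscle chain, whose loss causes muscular dystrophy in zebrafish and in people. It had 6.35, 7.003 and 8.39 CPM in elmo1-/- and 6.34, 7.83 and 9.04 CPM in elmo1+/+ samples (log2 fold change -0.09, SE 0.102). LAMA1, the chain of early embryonic basement membranes, had 11.7, 13.4 and 17.9 CPM in elmo1-/- and 11.9, 13.8 and 14.9 CPM in elmo1+/+ samples. It differed by 0.06 (SE 0.101) on the log2 scale, and by -0.014 without elmo1-/- sample 3. lama3, the chain that meets hemidesmosomes, had the lowest level of the class and a log2 fold change of -0.0080 (SE 0.134).

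**Figure D4:**
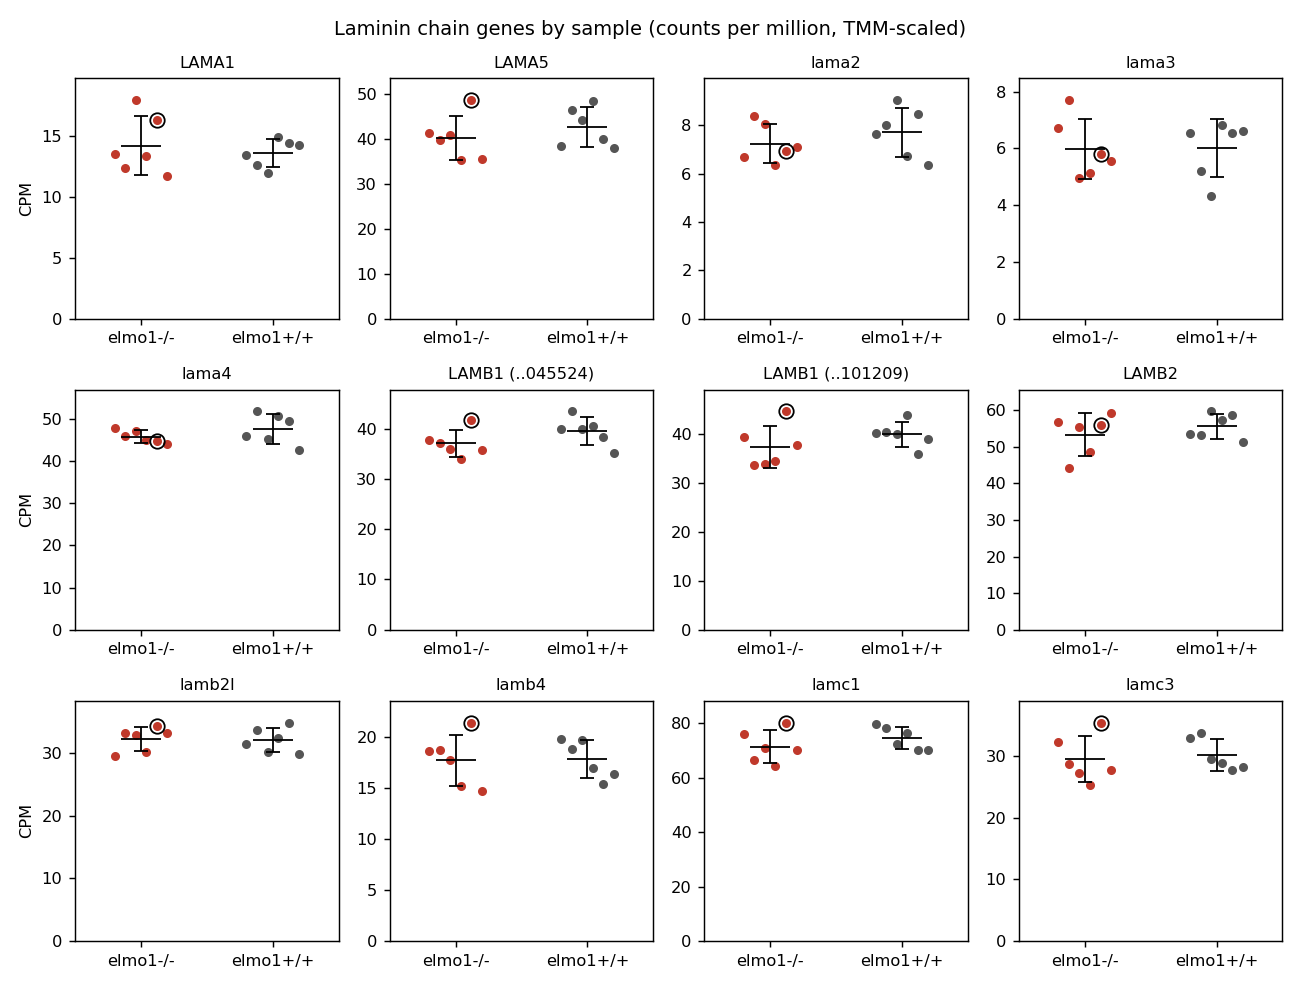
CPM of the 12 laminin chain genes in each sample, elmo1-/- in red and elmo1+/+ in grey, with the mean (long line) and SD (whiskers, n = 6 each); the ring marks elmo1-/- sample 5 and axes start at 0. The genotypes overlap in every panel, and the ringed sample is the highest elmo1-/- value in 7 of them.

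Laminin beta chains were led by LAMB2, the chain of the neuromuscular junction and the glomerulus in mice, at 11.8 ± 1.44 TPM in elmo1-/- and 12.7 ± 0.889 TPM in elmo1+/+ larvae (SD, n = 6 each). Its CPM values were 44.1, 55.6 and 59.3 in elmo1-/- and 51.3, 55.4 and 59.6 in elmo1+/+ samples, with a log2 fold change of -0.06 (SE 0.071). The LAMB1 copies were nearly equal in level. ENSDARG00000101209 had 33.7, 36.1 and 44.7 CPM in elmo1-/- samples, against 35.9, 40.3 and 44.0 CPM in elmo1+/+ samples. Of its elmo1-/- samples 3 lay below the lowest elmo1+/+ sample and sample 5 lay above the highest. ENSDARG00000045524 had 33.9, 36.6 and 41.6 CPM in elmo1-/- and 35.1, 39.9 and 43.4 CPM in elmo1+/+ samples. The log2 fold changes were -0.10 (SE 0.072) and -0.09 (SE 0.060), and -0.16 and -0.13 without elmo1-/- sample 5 (adjusted p = 0.478 and adjusted p = 0.538 in edgeR). Together the copies reached 74.4 ± 6.61 CPM in elmo1-/- larvae, against 79.5 ± 4.54 CPM in elmo1+/+ larvae. lamb2l and lamb4 differed by 0.0067 (SE 0.056) and -0.01 (SE 0.094), and the sign of both depended on the scaling or on single samples.

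Of the gamma chains lamc1, a part of most laminin trimers, took 66.0% ± 1.30 of the TPM in elmo1-/- and 66.4% ± 1.01 in elmo1+/+ larvae (SD, n = 6 each), and lamc3 took the rest. lamc1 had 64.2, 70.7 and 80.3 CPM in elmo1-/- samples, against 70.3, 74.5 and 79.6 CPM in elmo1+/+ samples. The difference was -0.06 on the log2 scale (SE 0.060, 95% interval -0.19 to 0.06), and -0.099 without elmo1-/- sample 5. lamc3 had 25.3, 28.3 and 35.5 CPM in elmo1-/- and 27.7, 29.3 and 33.8 CPM in elmo1+/+ samples (log2 fold change -0.03, SE 0.082; -0.093 without elmo1-/- sample 5). For both, elmo1-/- sample 5 was the highest and sample 4 the lowest of the mutant samples. The intervals of all 12 laminin chains ended at -0.31 and 0.28 at the widest.

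**Figure D5:**
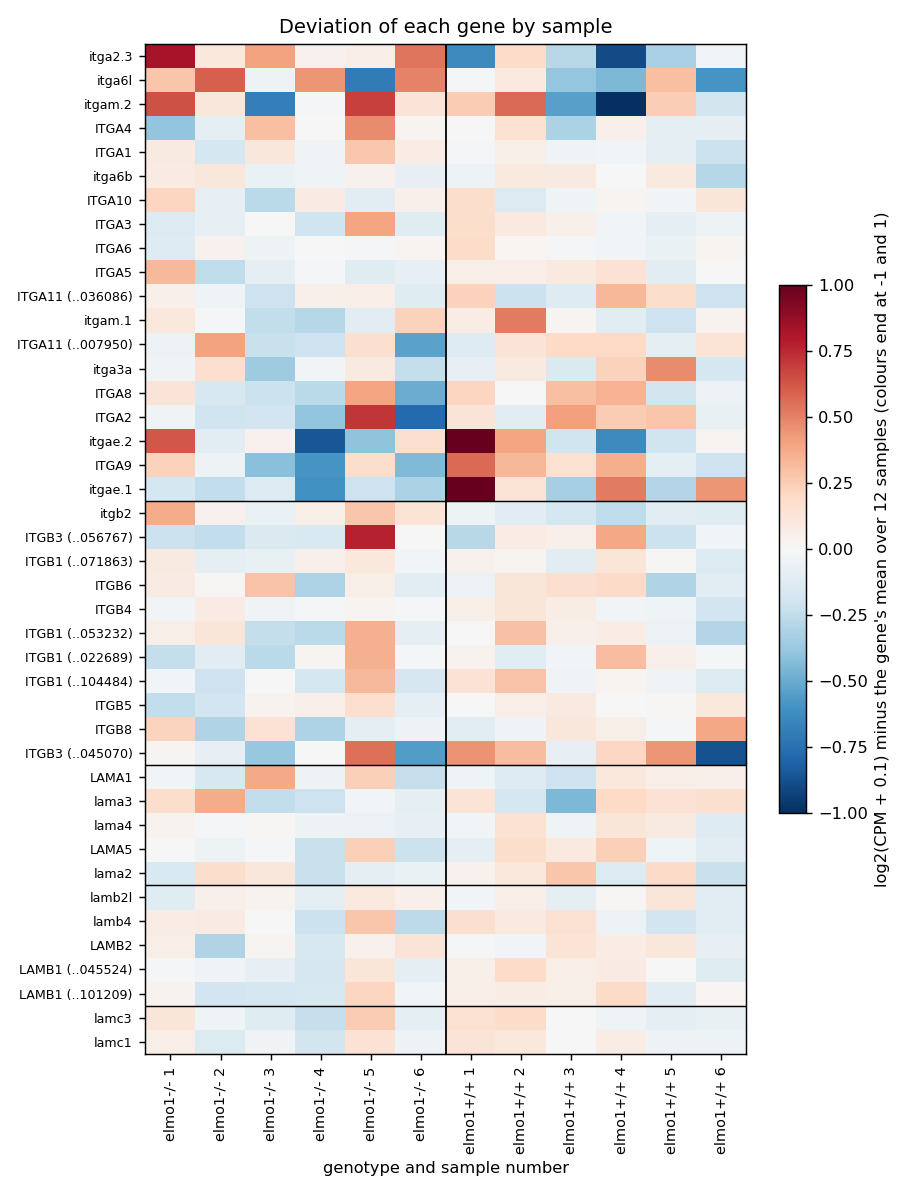
Deviation of each gene in each sample, as log2(CPM + 0.1) minus the gene's mean over the 12 samples, with elmo1-/- samples left of the line and classes divided by horizontal lines. The column of elmo1-/- sample 5 is mostly red and is the highest of all 12 samples for 12 integrin subunits and 5 laminin chains. How often it was the highest of all 12 samples over all genes was not counted.

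Single samples stood out across many members. Summed over the 12 laminin chains, the level was 391.9 ± 27.3 CPM in elmo1-/- larvae, against 407.4 ± 17.5 CPM in elmo1+/+ larvae (SD, n = 6 each), with 436.0 CPM in elmo1-/- sample 5 and 356.8 CPM in elmo1-/- sample 4 as the extremes of all 12. The 30 integrin subunits summed to 367.0 ± 20.6 CPM in elmo1-/- larvae, against 369.0 ± 18.6 CPM in elmo1+/+ larvae, and the highest sum, 404.7 CPM, was again that of elmo1-/- sample 5. Within the mutants this sample was the highest for 14 of 30 integrin subunits and 7 of 12 laminin chains, against 21.4% of all genes. It also had the lowest share of counts in the 20 most abundant genes, 17.03%, and its part in these values was not tested. Without it, 0 integrins and 0 laminins passed the threshold, and an unadjusted p under 0.05 was reached by 3 integrins higher and 4 lower and by 2 laminins lower, where the background was 8.81% of all genes, 4.12% higher and 4.68% lower. In elmo1+/+ the lowest value was most often that of sample 6, for 10 integrins and 6 laminins, against 16.7% of all genes.

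Other genes of the same system were read from lists. Of all genes tested 0.234% passed the threshold, so that 0 in lists this short says little. Of the basement membrane partners of laminin (nidogens, perlecan, agrin, collagens IV, XV and XVIII, Fraser proteins, dystroglycan and bcam), 0 of 21 passed the threshold. Of these 21 partners 16 had a log2 fold change below 0, against 48.3% of all genes. Their median was -0.061, close to that of the laminins, but also to those of the integrins (-0.057) and the epidermis markers (-0.058). The summed level of these partners was 941.3 to 1192.7 CPM in elmo1-/- and 1002 to 1052.9 CPM in elmo1+/+ samples. COL4A1 and COL4A2, the collagen IV chains of nearly all basement membranes, differed by -0.15 (SE 0.093) and -0.11 (SE 0.090) on the log2 scale. The collagen IV genes col4a5 and col4a6, more abundant in these larvae, differed by -0.08 (SE 0.076) and 0.06 (SE 0.070). AGRN, which clusters acetylcholine receptors, differed by 0.08 (SE 0.054). Of the other matrix ligands of integrins, 0 of 19 passed, with a median of -0.014. Fibronectin (FN1, ENSDARG00000006526) reached 206.4 ± 47.1 CPM in elmo1-/- larvae, against 181.3 ± 30.5 CPM in elmo1+/+ larvae (log2 fold change 0.19, adjusted p = 0.951). The other FN1 copy, ENSDARG00000019815, was less abundant and lay on the other side of 0. Its log2 fold change was -0.14 (SE 0.086, adjusted p = 0.928 in edgeR).

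Of the adaptors that couple integrins to actin, 0 of 24 passed, against 0.234% of all genes, with a median of -0.020. At an unadjusted p under 0.05 in edgeR they included 1 higher and 2 lower, where the background was 3.06% and 3.1% of all genes. The lowest p was that of a vinculin copy (VCL, ENSDARG00000098695), a link between talin and actin, with 7.47 ± 1.56 CPM in elmo1-/- larvae, against 9.96 ± 1.60 CPM in elmo1+/+ larvae (log2 fold change -0.41, adjusted p = 0.534). The more abundant VCL copy, ENSDARG00000044968, differed by -0.02 (SE 0.071) on the log2 scale. Both PARVA copies, which encode parvin, lay below 0, at -0.18 (ENSDARG00000043710, SE 0.073) and -0.20 (ENSDARG00000035629, SE 0.103). FERMT3 (ENSDARG00000030938), the kindlin of blood cells, had 3.60 ± 0.189 CPM in elmo1-/- larvae, against 3.01 ± 0.357 CPM in elmo1+/+ larvae (log2 fold change 0.26, adjusted p = 0.727). The less abundant FERMT3 copy, ENSDARG00000079267, lay on the other side of 0, at -0.11 (SE 0.223). TLN1 and ILK, which encode talin and the integrin-linked kinase, differed by -0.09 (SE 0.061) and -0.02 (SE 0.046). Of the 8 thrombocyte and erythroid markers listed, 5 were tested and 0 passed, against 0.234% of all genes. Their median log2 fold change was 0.157, with 3 above 0 and 2 below. The highest was that of gata1a, at 0.35 (SE 0.148, adjusted p = 0.748 in edgeR). The summed levels of the 5 markers were 20.3 to 26.3 CPM in elmo1-/- and 21.2 to 26.4 CPM in elmo1+/+ samples.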

How the data were processed

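The members and all gene lists were chosen with earlier results of these data known. Per the labels, RNA was purified on RNeasy columns and sequenced on a BGISEQ-500. The submitters' processing notes name Trim Galore 0.6.4, kallisto 0.4.6 and the build GRCz11, without their roles. The authors deposited an expected count and a TPM value for 32520 Ensembl genes per sample. TPM values were normalized by the authors for length and depth. Expected counts, of which 38.0% to 39.6% per sample were not whole, were rounded for the count tests, which the design had planned for whole counts. At this depth 0 counts allow up to 3 counts; such floors and count intervals cover counting error only. Genes were named from a table of Ensembl IDs and symbols (29201 IDs with a symbol), which gives no positions. By symbol in another assembly, GRCz12tu, 28 of the 43 members could be placed. Of these 1, ITGB8 (log2 fold change -0.13, SE 0.121), lay on chromosome 19, as elmo1 does. The part of linkage to elmo1 in its value was not tested. The values of 1 gene below the count minimum are not reported here.

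Genes were filtered with filterByExpr (minimum count 10) and compared with edgeR 4.0.16 (R 4.3.3; TMM, quasi-likelihood test, Benjamini-Hochberg over all genes, threshold 0.05) with genotype as the only term. SE and 95% intervals derive from the F statistic. The test was tested on simulated data. Named members were those past the threshold or without overlap between genotypes and, per class, the 2 with the highest mean TPM, and, per family, the 4 highest and 4 lowest fold changes among members with a mean of at least 1 log2 CPM. Others given with values were chosen after these were seen. DESeq2 1.42.0, limma 3.58.1 (voom with sample weights, trend on TPM), other normalization factors and filters, an effective length offset, a replicate block and leaving out each sample were the alternatives. Groups of subunits by ligand were set after the values were seen. Python 3.11.15 with pandas 2.3.3 drew the figures.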

Additional observations from a re-analysis of the deposited data

Results flagged for a closer look

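Among 52 sets of 6 samples examined (24 named genes and the summed integrin and laminin levels, in each genotype), 2 held a sample far from the others of its genotype, where chance gives about 1 in 20, or 2.6. Both were values of elmo1-/- sample 5. ITGA2 (ENSDARG00000062974) reached 3.71 CPM there, while the other mutant samples had 1.25 to 2.16 CPM. ITGB1 (ENSDARG00000104484) reached 18.6 CPM there, while the other mutant samples had 12.8 to 14.7 CPM. The log2 fold changes without this sample were -0.48 for ITGA2 and -0.16 for this ITGB1 copy.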

How the results depend on the processing

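In all 11 alternatives that kept all samples and in all 12 that left out 1 sample, 0 integrin subunits and 0 laminin chains passed the threshold. The number of genes called was 51 with edgeR and 97 with DESeq2 (44 higher and 53 lower), and 34 to 67 with 1 sample left out. Medians of the families stayed below 0 in every alternative, between -0.107 and -0.017 for integrins and between -0.106 and -0.035 for laminins. The value of -0.106 was that on log2(TPM + 0.1), where the median of all genes was itself -0.044. That median was -0.030 with library size only and -0.038 on log2(TPM + 1). In these settings the scaling thus sets part of the family medians. All alternatives reuse the same samples, so they are not independent of each other. With 1 sample left out, the integrins with an unadjusted p under 0.05 numbered 7 without elmo1-/- sample 5 and 5 without elmo1-/- sample 1 or elmo1+/+ sample 5, against 3 with all samples, and the laminins 2 without elmo1-/- sample 5 and 1 without elmo1+/+ sample 6, against 0. The share of all genes was 8.81% without elmo1-/- sample 5, 6.63% without elmo1-/- sample 1, 6.19% without elmo1+/+ sample 5 and 6.23% without elmo1+/+ sample 6, against 6.16%.

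Of all 42 subunits and chains 28 kept their direction throughout. Of the 14 that turned, the largest in size were itgae.2 (-0.25, and 0.079 at the highest) and ITGB3 (ENSDARG00000045070; -0.19, and 0.014 at the highest). Among the 24 members named by rule 7 turned, with log2 fold changes of at most 0.064 in size. With library size only, lamb2l, itga6b and ITGB1 (ENSDARG00000071863) were at -0.028, -0.023 and -0.017. On log2(TPM + 1) they were at -0.049, -0.059 and -0.030, and on log2(TPM + 0.1) at -0.056, -0.063 and -0.032. With an effective length offset lamb2l was at -0.0081 and itga6b at -0.016. The median of all genes was 0.0043 in the fit as reported, -0.030 with library size only, -0.038 on log2(TPM + 1), -0.044 on log2(TPM + 0.1) and 0.0041 with the effective length offset. With 1 sample left out, the fold changes ranged between -0.014 and 0.031 for lamb2l, -0.041 and 0.030 for itga6b, -0.0088 and 0.043 for ITGB1 (ENSDARG00000071863), -0.072 and 0.032 for lamb4, -0.095 and 0.040 for lama3, -0.093 and 0.0064 for lamc3 and -0.014 and 0.11 for LAMA1. The cause of these turns was not tested.

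Samples of both genotypes carry the numbers 1 to 6. Deviations of same-numbered samples correlated at -0.033 to 0.304 over 21830 genes (mean 0.130, against -0.026 for other numbers), and 3 of 6 elmo1-/- samples matched best with their own number. Pairing was taken as given only where every pair exceeded 0.1, which 4 of 6 did, so whether the numbers mark shared sets is not settled. A fit with a replicate block called 60 genes, 0 integrins and 0 laminins, and gave medians of -0.060 for both families.

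Intervals were widest for low integrins, and the part of depth in this was not tested. The SE reached 0.353 for itgam.2, whereas it was at most 0.134 among laminins.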
